A study of Mus musculus with 2 samples.

Results

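The troponin and tropomyosin isoforms are the regulatory proteins of the thin filament, and their genes were described here in spatial transcriptomes of 2 mouse hearts. The members were 10 genes listed by symbol, namely Tnni1, Tnni2 and Tnni3 for troponin I, Tnnt1, Tnnt2 and Tnnt3 for troponin T, Tnnc1 for troponin C, and Tpm1, Tpm2 and Tpm3 for tropomyosin. Of these, 9 were found among the 19465 genes counted, and Tpm3 was not analysed here. Tnnc2, the fast skeletal troponin C, is no member and was added to complete its family. Each section was cut at 5 μm and profiled by Visium CytAssist, an assay that hybridizes probes to each gene, catches them on barcoded spots and counts unique molecular identifiers (UMIs).

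The control section came from an α-MHC-MerCreMer+/− mouse, which carries an inducible Cre recombinase under a cardiomyocyte promoter. The transgenic section came from an α-MHC-MerCreMer+/− hTOP2B LSL/− mouse, in which Cre removes a STOP cassette at Rosa26 so that human TOP2B is made from the CAG promoter in cardiomyocytes. Both mice carried Cre, and both had a single intraperitoneal dose of 80 mg/kg of tamoxifen. The methods give an age of 6 weeks for transgenic mice on this dose and describe the controls as siblings of equal age. The comparison asks what TOP2B overexpression does to gene expression in the heart. Each genotype had 1 section from 1 mouse, so no test was run, no difference has a replicate check, and the genotype cannot be told apart from the animal, the section or the plane of the cut. A spot is a small region of several cells, so less RNA per cell and fewer cells of a type cannot be told apart either.

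The thin filament switches contraction on and off. Troponin C binds calcium, troponin I holds the filament off in its absence, and troponin T ties both to tropomyosin, which covers the myosin binding sites on actin. Troponins I and T have cardiac, slow skeletal and fast skeletal isoforms from separate genes, while troponin C has 1 gene for heart and slow muscle and another for fast muscle. The adult mouse heart uses Tnni3, Tnnt2, Tnnc1 and Tpm1, while the fetal heart makes the slow skeletal troponin I, Tnni1, which is replaced by Tnni3 after birth.

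The control section had 14376300 UMIs in 1256 spots and the transgenic section 12953389 UMIs in 923 spots, after 1 spot without a UMI was left out. The median spot held 11336 and 14540 UMIs. Levels are UMIs of a gene summed over all spots of a section per 1000000 UMIs (CPM). Intervals are 95% intervals that cover counting error only, being exact Poisson for levels, exact conditional binomial for ratios and Clopper-Pearson for shares. In both sections 725 spot barcodes were the same, which are positions of the array and not shared cells. Top2b counts did not mark the transgenic section, at 106 CPM in control tissue and 102 CPM in transgenic tissue. Whether its probes read the human transgene is not given in the sources used here. Both sections carried ventricular Myl2, at 21080 and 8646 CPM. The sections differed in shape, with 148 control and 306 transgenic spots nearest to an enclosed gap in the tissue and within 2 steps of it. Blood also differed, since 4 erythroid genes summed to 489 CPM in the control and to 4909 CPM in the transgenic section.

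Cardiac troponin I was the member with the lower level in the transgenic heart, while the slow skeletal troponins I and T and the fast skeletal troponin T were far higher and the main cardiac forms of troponin T, troponin C and tropomyosin stayed near their control level. A difference of at least 2-fold was counted as called, and genes needed at least 20 UMIs over both sections, which all 9 members had. By this rule 5 members were higher in the transgenic section, where 13.7% of all 15236 genes tested were. 1 member was lower, where 5.61% of the genes tested were. The remaining 3 members, Tnnt2, Tnnc1 and Tpm1, lay within 2-fold. The median log2 ratio of transgenic over control was 1.02 over the 9 members and 0.20 over all genes tested. The median of the members is the value of Tnni2, which rests on 41 and 75 UMIs.

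Spread inside a section was taken from 4 quadrants cut at the center of its spots. The same 5 members had every transgenic quadrant above every control quadrant, as did 30.3% of the genes tested. Tnni3 alone among the members had every transgenic quadrant below the control ones, as did 13.1% of the genes tested. Quadrants of 1 section are not replicates.

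**Figure D1:**
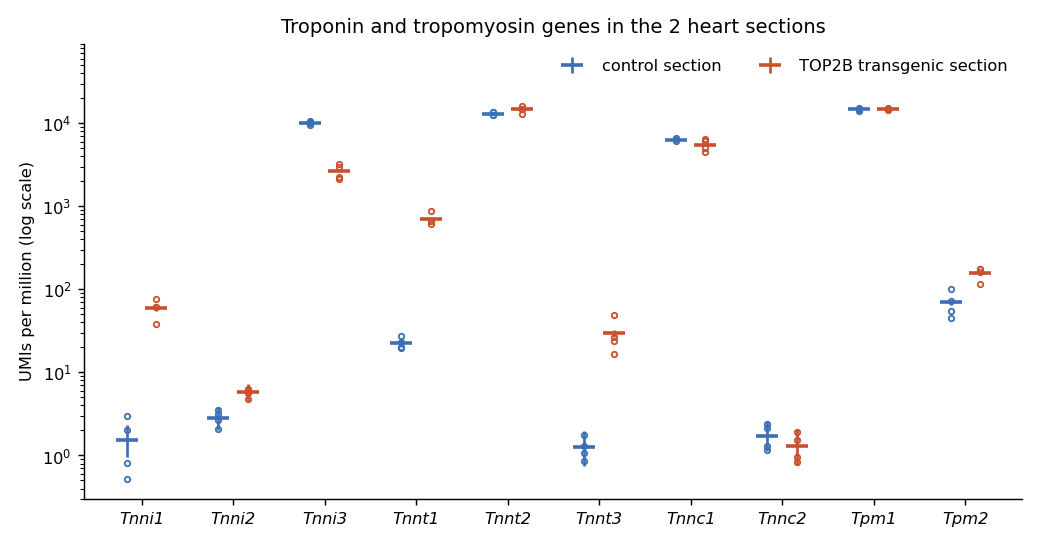
Levels of the 9 members and of Tnnc2 in UMIs per 1000000 on a log axis, with the section value as a bar with its 95% counting interval and the 4 quadrants as open circles. Tnni3 lies lower in the transgenic section and Tnni1, Tnnt1 and Tnnt3 far higher, while Tnnt2 and Tpm1 lie at nearly the same height in both.

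Tnni3 (ENSMUSG00000035458) encodes cardiac troponin I, the subunit that keeps the filament off at low calcium. The control section held 145042 UMIs of it, or 10089 CPM, with quadrants between 9595 and 10562 CPM. The transgenic section held 34487 UMIs, or 2662 CPM, with quadrants between 2150 and 3210 CPM. The lowest control quadrant was thus far above the highest transgenic one. The control level was 3.79-fold that of the transgenic section (3.75 to 3.83), a log2 ratio of -1.92. Only 114 of the 15236 genes tested, 0.748%, had a lower log2 ratio.

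The other cardiac subunits did not share this lower level, as ratios within a section show without any scaling between sections. For every 100 UMIs of Tnnt2, which encodes cardiac troponin T, there were 77.1 UMIs of Tnni3 in control tissue and 18.1 in transgenic tissue, a value 4.26-fold lower. The control quadrants ranged from 71.2 to 81.3 and the transgenic ones from 15.3 to 19.97. Against Tnnc1, the troponin C of the heart, the values were 159 and 48.4 per 100, and against Tpm1, the main cardiac tropomyosin, 68.3 and 18.1 per 100. Against Myh6, the adult myosin heavy chain of the mouse heart, the balance moved little, from 54.6 to 46.4 UMIs of Tnni3 per 100, a value 1.18-fold lower.

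The shift in the balance of Tnni3 and Tnnt2 ran through nearly all of the tissue. Among spots with at least 20 UMIs of Tnnt2, the ratio per 100 Tnnt2 UMIs in 1245 control spots had a median of 77.9, with the 10th and 90th percentiles at 53.3 and 109. In 885 transgenic spots the median was 17.8, with the 10th and 90th percentiles at 10.8 and 27.5. Of these transgenic spots, 3 lay above the control 10th percentile. Their highest value was 70.0, and the lowest control spot was at 22.4.

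**Figure D2:**
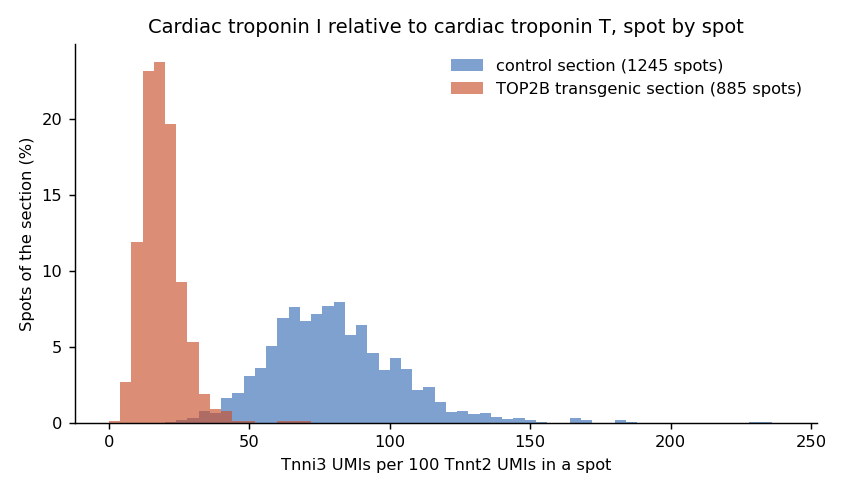
Share of spots in each section, in percent, by the number of Tnni3 UMIs per 100 Tnnt2 UMIs in the spot, for spots with at least 20 Tnnt2 UMIs. The transgenic spots center on 17.8 and the control spots on 77.9, with little overlap.

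Tnni1 (ENSMUSG00000026418), the troponin I of slow skeletal muscle and of the fetal heart, went the other way. The control section held 22 UMIs of it, or 1.53 CPM (0.959 to 2.32), and the transgenic section 766 UMIs, or 59.1 CPM (55.0 to 63.5). The transgenic level was 38.6-fold higher (25.3 to 62.0), and 18 of the genes tested had a higher log2 ratio. Control quadrants lay between 0.524 and 2.96 CPM and transgenic quadrants between 38.8 and 76.6 CPM. The control count was close to that of genes of other organs that the heart should lack, 12 of which had 0 to 21 UMIs there, so the fold rests on a control level near background. In the transgenic section 11 of these 12 genes had 2 to 18 UMIs, and Ttr, the transthyretin gene, had 253. Some 1.59% of control spots (0.975 to 2.45) and 49.2% of transgenic spots (45.9 to 52.5) had a UMI of Tnni1. With each spot thinned to 8139 UMIs, the shares were 0.628% and 36.5%.

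In counts, Tnni1 remained a small part of troponin I. Tnni1 made up 0.0152% of troponin I UMIs in control tissue and 2.17% in transgenic tissue (2.02 to 2.33), with 1.29% to 3.27% over its quadrants. Tnni3 still made up 97.6% of troponin I UMIs there. All troponin I genes together had 10093 CPM in control tissue and 2727 CPM in transgenic tissue. Shares between genes also depend on how well each gene's probes work, which was not measured in either section.

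Tnni2 (ENSMUSG00000031097), the fast skeletal troponin I, stayed rare. It had 41 UMIs, 2.85 CPM, in the control and 75 UMIs, 5.79 CPM, in the transgenic section. The ratio was 2.03 (1.37 to 3.05) and lay just past 2-fold. It was under 2-fold with edgeR's TMM factors (log2 ratio 0.86), DESeq2 size factors (0.87) and totals without the 50 most abundant genes (0.93), which leaves 4 members called higher. No spot held more than 2 of its UMIs.

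**Figure D3:**
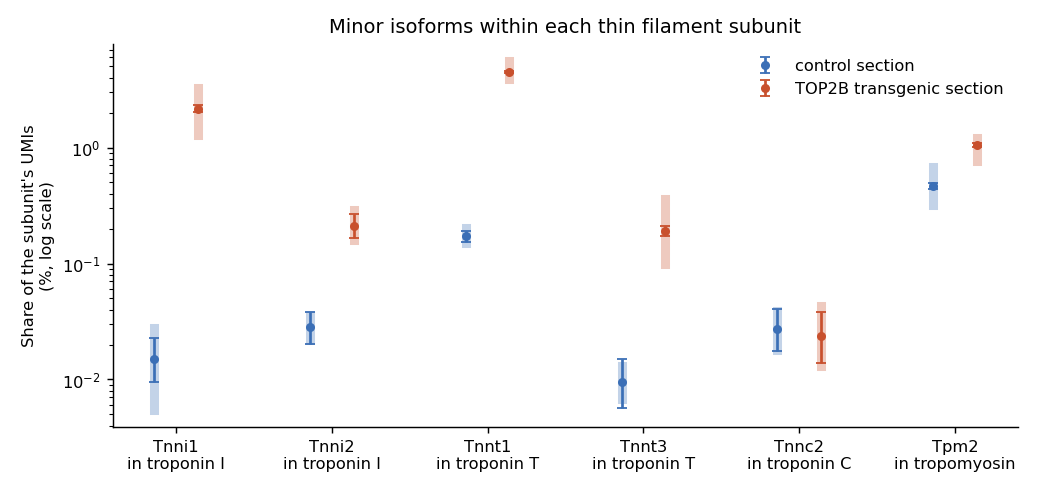
Share of the UMIs of each subunit that came from its minor isoforms, in percent on a log axis, with points and error bars for the section and its 95% interval and broad bars for the range over 4 quadrants. Every isoform shown except Tnnc2 has transgenic quadrants above all control quadrants, and Tnnc2 has overlapping ranges.

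Among the troponin T genes, the cardiac form held its level while both skeletal forms were higher. Tnnt2 (ENSMUSG00000026414) had 13091 CPM in control tissue and 14721 CPM in transgenic tissue, from 188198 and 190686 UMIs. The quadrants, 12667 to 13528 CPM and 13004 to 16322 CPM, overlapped. The log2 ratio was 0.17, below the median of all genes, and it was 0.01 with TMM factors.

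Tnnt1 (ENSMUSG00000064179), the slow skeletal troponin T, had 324 UMIs in the control section, or 22.5 CPM, and 9051 UMIs in the transgenic section, or 699 CPM. Its level was 31.0-fold higher (27.7 to 34.7), with control quadrants at 19.9 to 27.2 CPM and transgenic quadrants at 612 to 870 CPM. A UMI was found in 22.9% of control spots and in 95.4% of transgenic spots, or 17.1% and 98.7% after thinning. The share of Tnnt1 in troponin T was 0.172% in the control (0.154 to 0.192) and 4.52% in the transgenic section (4.43 to 4.61). In the transgenic section its quadrants ran from 3.87% to 5.53%.

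Spot by spot, the share of Tnnt1 in Tnnt1 and Tnnt2 UMIs, with Tnnt3 left out, was spread widely over the transgenic section. This was seen in 849 spots with at least 100 Tnnt2 UMIs. The transgenic share had a median of 4.32%, with the 10th and 90th percentiles at 1.92% and 7.29% and a highest spot at 13.3%. The variance over these spots was 2.29-fold that of binomial counting alone, so counting error makes up only part of the spread. In 1110 control spots with at least 100 Tnnt2 UMIs, the variance was 0.99-fold that of binomial counting.

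Tnnt3 (ENSMUSG00000061723), the fast skeletal troponin T, had 18 UMIs in the control section, which is within the range of the genes of other organs, and 384 in the transgenic section. Its levels were 1.25 CPM (0.742 to 1.98) and 29.6 CPM (26.8 to 32.8), a 23.7-fold difference (14.8 to 40.4). A UMI was found in 1.43% of control spots and 29.7% of transgenic spots, or 0.628% and 19.6% after thinning. The transgenic quadrants ran from 16.9 to 49.0 CPM and the control ones from 0.864 to 1.78 CPM. When 1 CPM was first added to each level, the log2 ratio was 3.77 for Tnnt3 and 4.57 for Tnni1 in place of 4.57 and 5.27. In the 50% of spots richest in cardiomyocyte markers, the log2 ratio of Tnni1 was 6.08 (4.95 to 7.54). The transgenic share of Tnni1 in troponin I was nevertheless lower in those spots, at 1.67% against 2.17% over all spots. In the control it was 0.0077% against 0.0152%. The transgenic share of Tnnt3 in troponin T was also lower in those spots, at 0.117% against 0.192% over all spots.

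Tnnc2, the fast skeletal troponin C, was not higher beside Tnnt3. It had 25 and 17 UMIs, 1.74 and 1.31 CPM, with a log2 ratio of -0.41 whose interval ran from -1.39 to 0.54. Of the other genes fixed as markers of fast skeletal muscle, the myosin heavy chains Myh1, Myh2 and Myh4 had 2 to 6 UMIs in each section and the calcium pump Atp2a1 had 3 and 2. All 9 genes of that list together had 22.8 CPM in control tissue and 240 CPM in transgenic tissue. Mybpc2, the fast skeletal myosin binding protein C, gave most of this with 212 and 2939 UMIs, and Mylpf and Actn3 had 36 and 16 UMIs against 63 and 56. Of 4 markers of embryonic skeletal muscle, Myh8, the perinatal myosin heavy chain, had 0 and 279 UMIs, while Myh3, Myog and Chrna1 had 5 to 24 UMIs in each section. The myosin heavy chains and the calcium pump of adult fast muscle were thus at or near the level of the genes of other organs in both sections.

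Several of these genes are neighbors. In the RefSeq annotation of GRCm38.p6, Tnni3 and Tnnt1 lie on chromosome 7 with 0 protein-coding genes between them, so the member with the lower level sits beside one with a far higher level. Tnni1 and Tnnt2 lie on chromosome 1 with 1 protein-coding gene between them, and Tnni2 and Tnnt3 on chromosome 7 with 1 as well. The first pair differed in opposite directions, the next had 1 higher and 1 near its control level, and in the last both were above 2-fold.

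Promoter windows were found for 8 of the 10 members. Shown here are the 100 bases before a RefSeq start for the members the results turn on, first those that differed (Tnni3, Tnni1, Tnnt1) and then those near their control level (Tnnt2, Tnnc1, Tpm1). Capitals mark a match to CATTCC (the MCAT motif, bound by TEAD factors), GATAA or TATAAA on either strand, and all lines read 5′ to 3′ in the direction of transcription.
Tnni3, chr7:4522529-4522628, minus strand: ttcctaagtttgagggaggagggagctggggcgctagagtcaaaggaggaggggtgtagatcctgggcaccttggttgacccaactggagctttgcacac
Tnni1, chr1:135799321-135799420, plus strand: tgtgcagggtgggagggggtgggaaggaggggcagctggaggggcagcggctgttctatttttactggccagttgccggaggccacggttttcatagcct
Tnnt1, chr7:4515976-4516075, minus strand: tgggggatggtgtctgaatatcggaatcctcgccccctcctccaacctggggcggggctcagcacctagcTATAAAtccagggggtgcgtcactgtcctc
Tnnt2, chr1:135836234-135836333, plus strand: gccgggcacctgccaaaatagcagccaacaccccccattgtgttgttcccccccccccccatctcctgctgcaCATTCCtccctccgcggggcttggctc
Tnnc1, chr14:31208212-31208311, plus strand: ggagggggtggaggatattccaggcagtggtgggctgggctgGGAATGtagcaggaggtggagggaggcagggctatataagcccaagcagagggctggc
Tpm1, chr9:67049214-67049313, minus strand: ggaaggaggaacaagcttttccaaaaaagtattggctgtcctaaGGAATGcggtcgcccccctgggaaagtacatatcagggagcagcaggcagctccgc

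Over the whole 250 bases before each start, CATTCC was found in these windows of Tnnt2, Tnnc1 and Tpm1 and in no window of Tnni3, Tnni1, Tnnt1 or Tpm2. It is present in 12.6% of 32851 such windows of all genes. TATAAA was found for Tnnt1 alone among the members, at 30 to 25 bases before the start, and in 12.4% of all windows. GATAA was found for Tnnt2 and Tpm3 and in 22.6% of all windows. A second start of Tnni1 and of Tnnt2 held none of these motifs. These genes were grouped by their levels, and a link between a motif and a level was not tested. Further motifs were sought in the same windows. The E-box motif CANNTG, with N for any base, was in every window of the members and in 66.2% of all windows. The MEF2 and CArG motifs were in none of the member windows, beside 2.92% and 1.47% of all windows. A match is a description of the letters and not a binding site, and windows of the remaining starts of these genes were not used here.

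Troponin C kept its cardiac form. Tnnc1 (ENSMUSG00000091898), the calcium sensor of heart and slow muscle, had 91381 UMIs, 6356 CPM, in the control and 71322 UMIs, 5506 CPM, in the transgenic section. The quadrants, 6060 to 6579 CPM and 4536 to 6416 CPM, overlapped. Its log2 ratio of -0.21 became -0.36 with TMM factors and 0.05 in the 50% of spots richest in cardiomyocyte markers, so its direction depends on the spots used. Tnnc1 made up over 99.9% of troponin C UMIs in both sections, at 99.97% and 99.98%.

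The main tropomyosin had nearly the same level in both sections. Tpm1 (ENSMUSG00000032366), α-tropomyosin, had 212288 UMIs, 14767 CPM, in the control and 190975 UMIs, 14743 CPM, in the transgenic section. Its log2 ratio was 0.00 (-0.01 to 0.01), and alternative scalings and spot sets gave -0.16 to 0.10. The quadrants lay between 14234 and 15323 CPM and between 14311 and 15187 CPM. Set against the median log2 ratio of 0.20 over all genes, the ratio of Tpm1 is slightly below that of the typical gene.

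Tpm2 (ENSMUSG00000028464) encodes β-tropomyosin, a form of skeletal and smooth muscle. It had 1000 UMIs, 69.6 CPM (65.3 to 74.0), in the control and 2040 UMIs, 157 CPM (151 to 164), in the transgenic section, a ratio of 2.26 (2.10 to 2.44). A UMI was found in 40.4% of control spots and 78.8% of transgenic spots, or 32.4% and 67.1% after thinning. Its share of Tpm1 and Tpm2 UMIs was 0.469% in the control and 1.06% in the transgenic section. The related gene Tpm3-rs7, which is not the member Tpm3, had 35 and 32 UMIs.

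The level of Tpm2 also varied with smooth muscle genes in the same spot. Spots were grouped after the values were seen by their UMIs of 4 smooth muscle genes (Myh11, Tagln, Cnn1 and Lmod1). In 833 control spots with none of these, Tpm2 had 34.7 CPM (31.0 to 38.7), and in 120 control spots with 3 or more it had 282 CPM (257 to 310). In the transgenic section, 357 spots with none had 133 CPM (122 to 144) and 172 spots with 3 or more had 229 CPM (212 to 248). Tpm2 was thus higher in the transgenic section among spots with no UMI of these 4 genes and lower among those with 3 or more. The groups are not alike in both sections, since Cnn1 itself had 45 and 271 UMIs, and a spot with no UMI may still hold smooth muscle. With Myh11 alone, the spots with none had 41.6 and 143 CPM, and those with 3 or more had 446 (396 to 501) and 407 CPM (343 to 481), whose intervals overlap. Summed over 7 smooth muscle markers, the sections had 752 and 731 CPM, but the genes in these sums went opposite ways. Smtn had 358 and 185 CPM and Myh11 33.8 and 22.2 CPM. Acta2 had 292 and 412 CPM, Tagln 42.2 and 65.2 CPM and Cnn1 3.13 and 20.9 CPM, while Lmod1 and Mylk differed little. The sums therefore do not show whether the sections held equal amounts of smooth muscle. Tpm1 varied little over the same groups of spots, from 14353 to 15082 CPM in both sections together.

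In the transgenic section the skeletal isoforms did not share 1 pattern over the tissue. Spots within 2 steps of the outside were called the outer edge, those within 2 steps of an enclosed gap and closer to it the inner gap, and the rest the mid-wall. Tnni1 was highest at the outer edge with 81.9 CPM (72.4 to 92.3), against 53.3 CPM in the mid-wall (47.5 to 59.5) and 48.5 CPM at the inner gap (41.7 to 56.0). Tnnt1 ranged only from 656 to 733 CPM over these zones. Tnnt3 had 21.9 CPM at the outer edge (17.2 to 27.6), 33.9 CPM in the mid-wall (29.3 to 38.9) and 29.8 CPM at the inner gap (24.5 to 35.8), whose interval overlaps both. Tpm2 lay between 155 and 159 CPM in all 3 zones. Tnni3 had 2436 CPM at the outer edge, 2725 CPM in the mid-wall and 2761 CPM at the inner gap.

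The map of Tnni1 shows many of its fullest spots in a thin-walled part of the transgenic tissue, which was measured after it was seen. In 65 spots within 3 steps of both the outside and an enclosed gap, Tnni1 had 116 CPM (95.3 to 139), and in the other 858 spots 54.6 CPM (50.5 to 59.0). Tnnt1 had 686 and 700 CPM there, and Tnnt3 24.0 and 30.1 CPM. Myh7, the fetal myosin heavy chain, was also higher in the thin wall, at 10129 against 7665 CPM, as was Myl7, an atrial light chain, at 75.1 against 28.1 CPM. Nppa, the atrial natriuretic peptide, was lower in the thin wall, at 14380 against 20719 CPM. Ventricular Myl2 had 7127 and 8768 CPM, and the part of chamber in this difference was not tested. In the control section 2 spots met this rule, which is too few for a value. The zones above cover all spots, so every thin-wall spot is also counted in a zone and can lie at the outer edge. The levels of Tnni1 in the thin wall and at the outer edge are thus not separate findings.

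**Figure D4:**
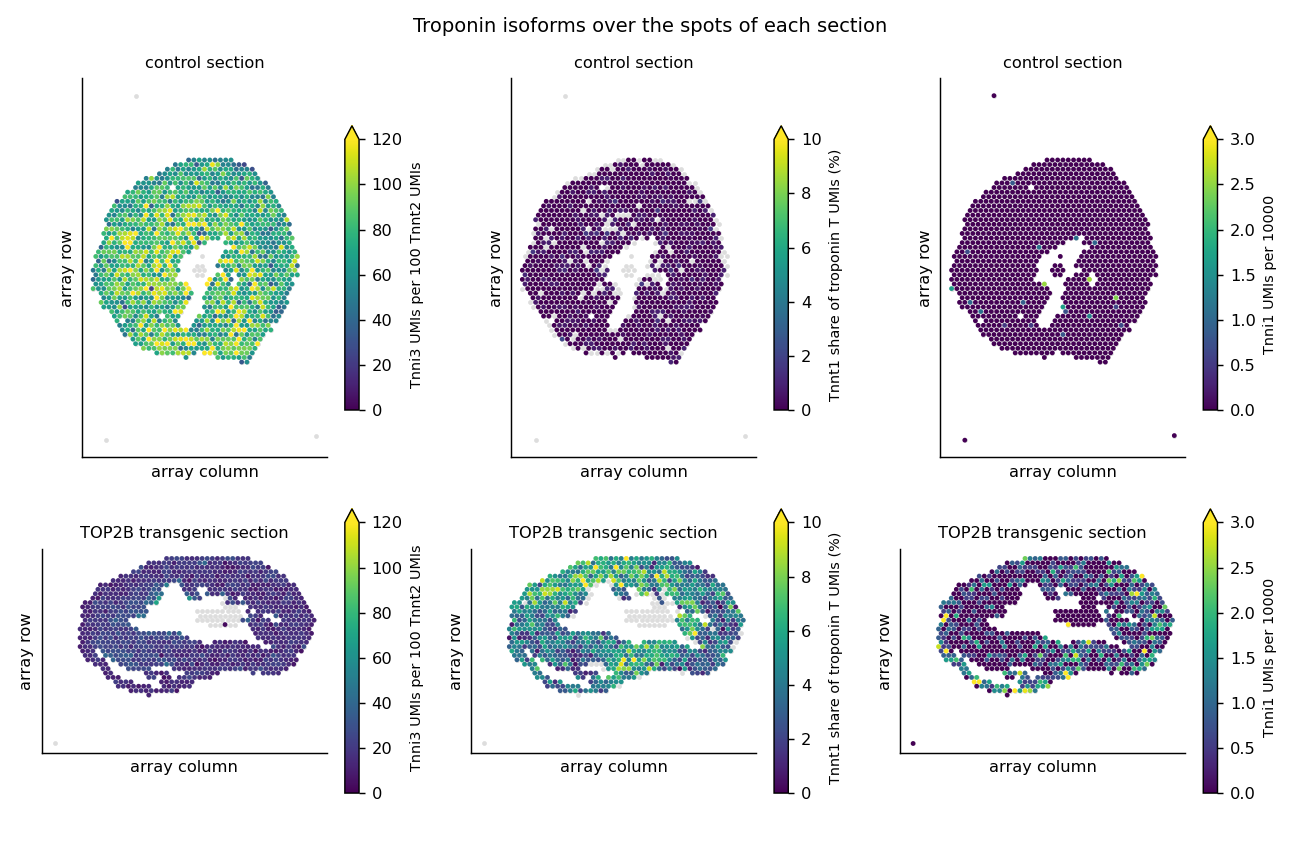
Spots of each section at their array positions, colored by Tnni3 UMIs per 100 Tnnt2 UMIs, by Tnnt1 share and by Tnni1 UMIs per 10000. The Tnnt1 share is in percent of Tnnt1 and Tnnt2 UMIs, with Tnnt3 left out. Grey marks spots where under 20 (first column) or 100 (second column) Tnnt2 UMIs were counted. The control section is filled with high Tnni3 and almost no Tnnt1 or Tnni1, and in the transgenic section Tnnt1 is widespread while Tnni1 is sparse and fullest in the thin wall.

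The isoforms also differed in how their levels ran with Myh7 and Nppa over the transgenic tissue. A total of 885 spots with at least 20 UMIs of Myh6 and Myh7 were put in order of the Myh7 share of both, and in order of the level of Nppa, and each order was cut into 3 sets of 295. From the set with the lowest Myh7 share to the highest, Tnni1 went from 40.4 (34.7 to 46.8) through 61.3 to 78.7 CPM (70.4 to 87.7). Tnnt1 went the other way, from 771 through 748 to 595 CPM, and Tnni3 from 2963 through 2741 to 2350 CPM. From the lowest to the highest Nppa set, Tnnt3 went from 13.5 (10.1 to 17.5) through 23.7 to 51.0 CPM (44.6 to 58.1). Tnnt1 stayed between 688 and 719 CPM over the Nppa sets, and Tnni1 had 48.0, 68.8 and 61.8 CPM. Relative to the cardiac form, each of these skeletal isoforms was higher in the highest Nppa set than in the lowest. Tnnt1 per 100 Tnnt2 went from 4.24 to 5.38 and Tnnt3 per 100 Tnnt2 from 0.083 to 0.382. Tnni1 per 100 Tnni3 went from 1.44 to 2.78. Over these sets Tnnt2 itself went from 16230 to 13356 CPM and Tnni3 from 3340 to 2220 CPM. Tnni3 per 100 Tnnt2 ranged only from 16.3 to 20.6 over all 6 sets. These sets were chosen after earlier values were seen and are descriptions of 1 section.

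**Figure D5:**
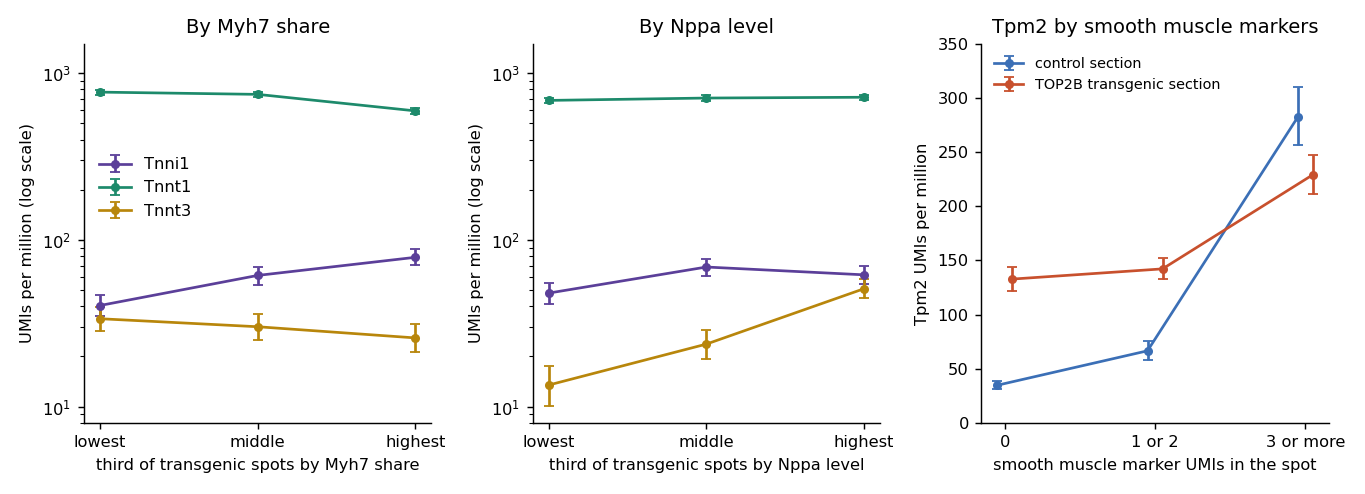
Levels in UMIs per 1000000 with 95% counting intervals: Tnni1, Tnnt1 and Tnnt3 over transgenic spots ordered by Myh7 share (left) and by Nppa level (middle), both on log axes, and Tpm2 over spots of both sections by their smooth muscle marker UMIs (right, linear axis). Tnni1 climbs with the Myh7 share, Tnnt3 with Nppa, and Tpm2 differs most between the sections in spots without smooth muscle UMIs.

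Clustering of a gene in the tissue is described by the deposited Moran's I, which is near 0 for a scattered gene and near 1 for a clustered one. In the control section it was 0.06 for Tnni3, 0.09 for Tnnt2, 0.17 for Tnnc1, 0.03 for Tpm1 and 0.20 for Tpm2. In the transgenic section it was 0.65, 0.61, 0.66, 0.62 and 0.18 for the same genes. For comparison, genes with at least 10 UMIs per spot had a median of 0.07 and a 95th percentile of 0.15 in the control, and of 0.57 and 0.69 in the transgenic section. Tnnc1 in the control lay above that 95th percentile, and Tnni3, Tnnt2 and Tpm1 lay below it in both sections. For Tnni1, Tnnt1 and Tnnt3 the value was 0.00 in control tissue, and in transgenic tissue it was 0.14, 0.49 and 0.18. These genes and Tpm2 had under 10 UMIs per spot, so they are outside that comparison. Over all genes tested, the 95th percentile was 0.03 in the control and 0.19 in the transgenic section. Tpm2 in the control and Tnnt1 in the transgenic section lay above it, in a set that includes genes with as few as 20 UMIs over both sections. Tnnt1 had 9051 UMIs in 923 transgenic spots, just under 10 per spot. Its 0.49 was below the median of 0.57 of the genes with at least 10. Tnni1, Tnnt3 and Tpm2 in the transgenic section lay between the 90th percentile of all genes tested, 0.10, and the 95th. Of the transgenic spots, 45 had a share of cardiomyocyte markers under 50% of the section's median, and 42 of these lay at inner gaps. The control section had 9 such spots, of which 7 lay at inner gaps.

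Genes with the most similar pattern over spots were sought by Spearman's rho among genes with at least 1 UMI per spot, as a description over spots of 1 section that share a library. In 923 transgenic spots, Tnni3 was most like Cox6a2 (rho 0.79), a muscle subunit of cytochrome c oxidase, then Ckmt2 (0.75), Fabp3 (0.75), Myl2 (0.74) and Slc25a4 (0.74). Tnnc1 was most like Myl3 (0.76), Myl2 (0.75), Ckmt2 (0.74), Mb (0.71) and Cox7a1 (0.71). Tnnt2 was most like Myh6 (0.60), Lpl (0.54), Slc25a4 (0.53), Myl2 (0.53) and Fabp3 (0.52). Myl2 stood in all 3 of these lists.

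The lists of Tnnt1 and Tpm1 were headed by another gene. Tnnt1 was most like Myl1 (0.49), a light chain of fast skeletal muscle, then Des (0.34), Tpm1 (0.33), Hspb7 (0.33) and Hspb6 (0.33). Tpm1 was most like Myl1 (0.45), Ttn (0.37), Tnnc1 (0.36), Hspb7 (0.34) and Tnnt1 (0.33). Without the 45 spots poor in cardiomyocyte markers, Tnnt1 and Myl1 had a rho of 0.42 and Tnni3 and Cox6a2 of 0.76. The rest of the Tnnt1 list then had lower values of 0.23 to 0.24. Tpm1 and Myl1 had 0.37 and the rest of the Tpm1 list 0.24 to 0.27. For Tpm2 the highest values, 0.19 to 0.21 with Ctsd, Fbln5, Vim, Acta1 and Igfbp7, were weak. They were 0.11 to 0.16 without those spots. In 1256 control spots Tnni3 was again most like Cox6a2 (0.42), and the highest values of Tnnt2, Tnnc1 and Tpm1 were 0.22, 0.23 and 0.22. Tnni3 and Tpm1 had a rho of -0.26 in the control and 0.13 in the transgenic section, and the latter was 0.00 without the 45 spots poor in cardiomyocyte markers.

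Other genes of the thin filament and its partners differed in both directions. Of 24 such genes measured, 6 were at least 2-fold higher and 5 at least 2-fold lower in the transgenic section, beside 13.7% and 5.61% of all genes tested. Their median log2 ratio of 0.22 was near the 0.20 of all genes. Higher were Myh7 (log2 ratio 7.87), Cnn1 (2.74), Acta1, the skeletal α-actin (2.62), Xirp1 (1.21), the actin-binding Cald1 (1.02) and the filament-capping Tmod2 (1.00, from 26 and 47 UMIs). Lower were Lmod3, which elongates thin filaments (-2.72), Tnni3k, a kinase named for its binding to cardiac troponin I (-2.24), the capping protein Tmod4 (-2.06), Myh6 (-1.69) and the actin-assembly gene Fhod3 (-1.64). Acta1 had 246 and 1512 CPM, so the skeletal form of actin was also higher in level. The cardiac form, Actc1, was not among the genes counted, so the balance of actin isoforms cannot be given as for troponin T. Within 2-fold lay 13 genes, among them Mybpc3, the cardiac myosin binding protein C, with a log2 ratio of 0.13 and Tmod1, the main capping protein of the heart, with -0.98. With TMM factors, Cald1 and Tmod2 were under 2-fold and Tmod1 was past it, which gave 4 higher and 6 lower. With the same factors, 10.6% of all genes were at least 2-fold higher and 7.93% lower, and the log2 ratios of all genes shifted by -0.16.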

How the data were processed

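The authors made the files with Space Ranger 2.0.0, per the file headers, and the submitters' processing notes also name bcl2fastq and the builds GRCm39 and mm39. The probe set is not given in the sources used here. The deposited values are raw UMI counts per gene and spot over tissue, not normalized. Moran's I is a score deposited by the authors as computed by Space Ranger. Sums equalled the deposited sums for all 19219 control and 19227 transgenic genes listed with one.

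UMIs were summed per section and scaled to CPM. A count of 0 allows up to 3 counts, 0.209 CPM for the control section and 0.232 CPM for the transgenic one. Python 3.11.15, numpy 2.4.6, scipy 1.17.1, pandas 2.3.3 and R 4.3.3 with edgeR 4.0.16 and DESeq2 1.42.0 (scaling factors only) were used, and intervals and thinning were tested on simulated data. Thinning left out 141 control and 77 transgenic spots.

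The members and lists were chosen with earlier results of these data known. The genes named are the members, Tnnc2, the thin filament genes past 2-fold and the 5 genes most like each member with at least 1 UMI per spot. Other genes named were chosen after their values were seen or belong to the marker lists. Of these lists, those of fibroblasts (1253 control and 3120 transgenic CPM), macrophages (154 and 311 CPM), endothelial cells (481 and 421 CPM), atrial (26.6 and 134 CPM), ventricular (21194 and 8740 CPM) and embryonic skeletal muscle genes (2.99 and 23.5 CPM) were summed, and 11 cardiomyocyte markers had 73735 and 42663 CPM. Genes within a list did not always go the same way. Of the cardiomyocyte markers, Myh7 had 33.6 and 7847 CPM and Des 3017 and 8661 CPM, while all the others were lower. Spots ranked by the sum of these markers were thus ranked on a different mix of genes in each section. Of the atrial genes, Dkk3 had 57 and 947 UMIs, Myl7 125 and 409, Myl4 158 and 328 and Fgf12 17 and 33. Sln had 16 and 10 UMIs and Bmp10 had 9 and 9. Of the ventricular genes, Myl2 and Irx4 were lower, Xdh had 57.9 and 80.0 CPM, and Hand1 had no UMI. Alternatives were other scalings, 1 CPM added, other UMI minimums, the mean over spots, thinned spots, and spots chosen by cardiomyocyte markers, tissue edge or depth. Promoters came from RefSeq, GRCm38.p6. The study's test over spots was not repeated, since spots are not replicates.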

Additional observations from a re-analysis of the deposited data

How the results depend on the processing

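Over 10 alternatives each, the log2 ratios of Tnni1, Tnni3, Tnnt1, Tnnt3 and Tpm2 kept their direction and stayed past 2-fold, with ranges of 4.57 to 6.08, -2.08 to -1.70, 4.80 to 5.10, 3.77 to 4.70 and 1.02 to 1.70. Tnni2 ranged from 0.71 to 1.15 and was past 2-fold under 4 of them. Tnnt2 ranged from 0.01 to 0.29. Tnnc1 ranged from -0.36 to 0.05 and Tpm1 from -0.16 to 0.10, so both crossed 0. The cause was not tested. The change of Tnni3 per Tnnt2 on the log2 scale, -2.09, was -1.99 in the 50% of spots richest in cardiomyocyte markers. The transgenic Tnnt1 share of 4.52% was 4.36% in those spots and 4.62% in spots away from the tissue edge. The spots without those poor in cardiomyocyte markers, the share with Tpm3-rs7, the grouping by Myh11 alone and the scalings of the thin filament counts were chosen after seeing the data. Tropomyosin shares are of Tpm1 and Tpm2 alone, and a share with Tpm4 could not be run, since Tpm4 was not counted. No paired analysis was possible because each genotype had 1 section. Depth limits Tnni1, Tnnt3 and Tnni2 in the control section, which rest on 18 to 41 UMIs.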
